A study of Mus musculus with 6 samples.

Results

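The genes described here are 34 mouse genes of the BMP and TGF-beta pathways: ligands, receptors, antagonists, intracellular inhibitors and response genes. They were chosen by symbol, current or former, from the annotation of the array, and 34 of 34 had at least 1 probe, with 64 probes in all. The array held probes for 19053 genes, of which 11147 were detected on at least 2 of the 6 arrays and tested. Of the 34 genes, 21 passed that filter. A further 11 were not detected on any array, and 2 were detected by a probe on a single array.

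The series measured expression in the conjunctival epithelium, the surface layer lining the eyelids and the white of the eye, in mouse embryos at E14.5. The arrays labelled KO came from embryos homozygous for floxed Sox9 and positive for Le-Cre, labelled as null for Sox9. The arrays labelled WT came from wild-type embryos, and both genotypes had a mixed FVB and 129 background. Le-Cre is driven by a surface ectoderm enhancer of Pax6, so Cre acts in the epithelium of the eye surface and in the lens but not in the mesenchyme around them. Each genotype had 1 array for the nasal, 1 for the temporal and 1 for the dorsal epithelium, cut from sections by laser microdissection. The nasal and temporal epithelium form the Harderian and lacrimal glands. By the design text 3 embryos of each genotype were used and the cDNA of each region was pooled, so the 3 arrays of a genotype share embryos, which makes p-values between genotypes too small. The extraction protocol instead names tissue of 1 embryo, so the number of embryos behind an array is uncertain.

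BMP and TGF-beta ligands are secreted proteins that bring together type I and type II receptors with kinase activity. The type I receptor then phosphorylates Smad proteins, Smad1, Smad5 and Smad9 for BMP and Smad2 and Smad3 for TGF-beta, which enter the nucleus with Smad4. In the developing eye these signals help to set lens and corneal fate and the budding of glands from the surface ectoderm.

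Detected probes were 39.8% to 45.6% of the 45281 on an array, the median signal was 77.3 to 83.7 intensity units, and a probe had a median of 43 beads. The Sox9 probes were detected on all 6 arrays and were not both lower on the KO array in any region. In nasal both were higher. By one probe Sox9 differed, KO minus WT, by 1.92 log2 units in nasal, 0.05 in temporal and -0.50 in dorsal, and by the other by 0.99, -0.42 and 0.78. The position of these probes relative to the floxed exons was not analysed here, so they may check nothing, and KO and WT below stand for the labels. The markers of surface epithelium were detected on every array, 10 of 10, with a summed intensity of 8634 to 9352 on the KO arrays and 7920 to 9004 on the WT arrays. Markers of periocular mesenchyme, 13 of 14 detected on at least 2 arrays and Pdgfrb on none, summed to 1849 to 2678 on the KO arrays and 2218 to 2663 on the WT arrays. Without Tfap2b, the brightest of them, the sums were 840 to 1120 on the KO arrays and 730 to 1314 on the WT arrays. In such bulk samples fewer cells of a type and less RNA per cell cannot be told apart.

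Levels are log2 of the normalized intensity, differences between genotypes are KO minus WT, and a gene was called at an adjusted p under 0.05 by limma. None of the 21 genes was called between genotypes over the 3 regions, and neither was any of the 11147 genes tested (0%). The smallest adjusted p of the 21 was 0.814. At an unadjusted p under 0.05 limma picked 658 of 11147 genes (5.9%), and 4 of the 21: Bmp4, Dlx3, Cdkn2b and Tgfbi. All 4 were higher on the arrays labelled KO, a direction that 2.75% of all genes had at that p. Tgfbi passed the detection filter through KO arrays alone, so its direction was set in advance and carries no weight. Of the 21, 10 had a fitted difference above 0 and 11 below, with a median of -0.00 log2 units. Over all genes tested 5487 were above and 5660 below, with a median of -0.01. The 95% interval of the fitted difference reached 0.82 log2 units either side for the median member and 0.59 to 1.85 over the members, so only large differences could have been seen with 3 arrays a genotype.

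**Figure D1:**
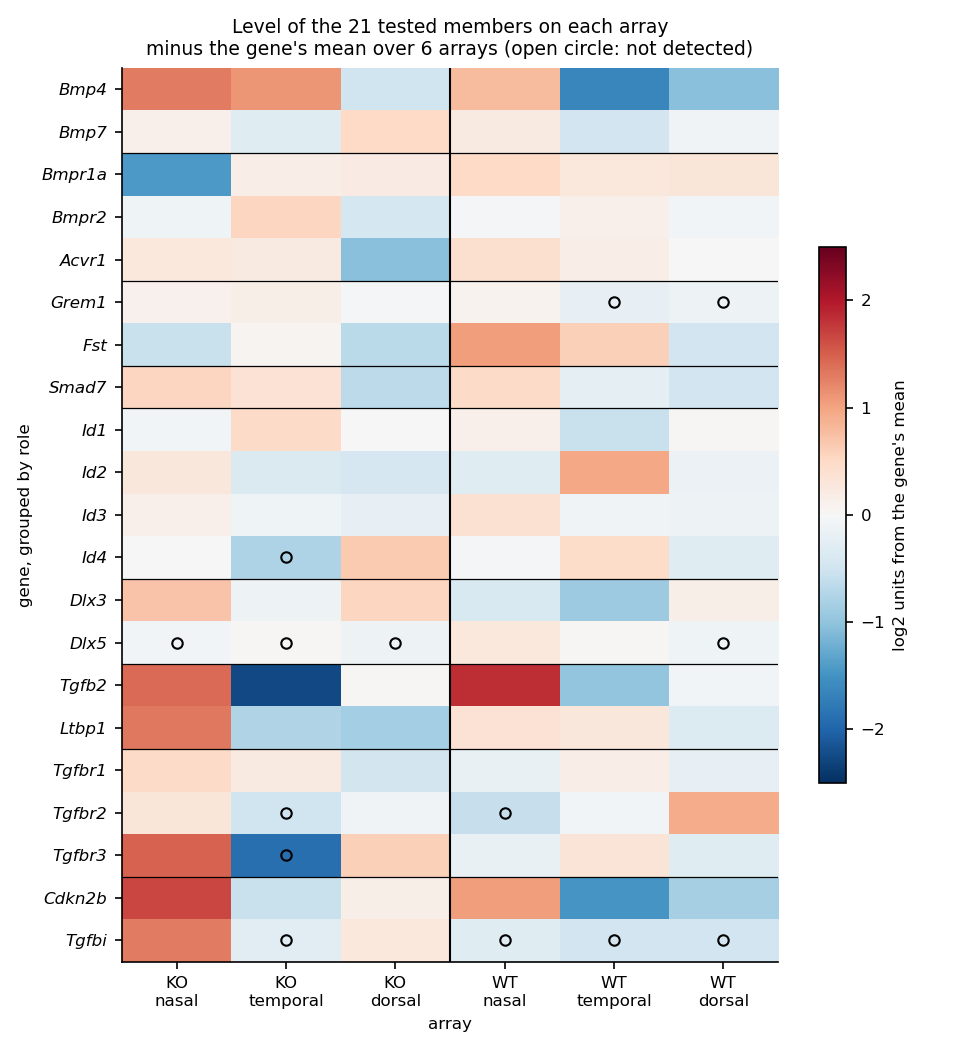
Level of each of the 21 tested genes (rows, grouped by role) on each of the 6 arrays (columns, KO left of WT), as log2 units above or below that gene's mean over the arrays, with open circles where the probe was not detected. Tgfb2 and Cdkn2b are high on the nasal and low on the temporal array of both genotypes, and Bmp4 is lowest on the WT temporal array.

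Bmp4, a ligand made by the eye surface and the tissue below it, showed the widest genotype difference of the set. Its level was 7.53, 7.33 and 5.72 on the nasal, temporal and dorsal arrays labelled KO, against 7.02, 4.59 and 5.18 on those labelled WT. The KO array was higher in each region, though the WT nasal array lay above the KO dorsal one, so the genotypes overlapped. In the temporal epithelium Bmp4 was 6.64-fold higher on the KO array (2.73 log2 units, bead SE 0.16), with differences of 0.50 in nasal and 0.54 in dorsal. With no background correction the temporal difference was 1.38. The fitted difference over regions was 1.26 (SE 0.50, adjusted p = 0.814, limma). It was 0.52 without either temporal array. The WT temporal value lay close to the lowest detected level on that array, 4.47, and the second Bmp4 probe was not detected on any array.

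Bmp7, a related ligand needed for lens induction, stood at 6.21, 5.79 and 6.59 on the KO arrays, against 6.32, 5.61 and 6.01 on the WT arrays. These levels overlapped, and the fitted difference was 0.22. Its 2 probes gave the same sign in each region, lower in nasal and higher in temporal and dorsal. Bmp2, the remaining ligand of this group, was not detected on any array.

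Among the BMP receptors, the type I receptor Bmpr1a was lower on each KO array than on all 3 WT arrays. Its level was 6.36, 7.96 and 8.02 in KO nasal, temporal and dorsal epithelium, against 8.30, 8.07 and 8.10 in WT. Nearly all of this lay in the nasal epithelium, where it was 3.82-fold lower on the KO array (-1.93, bead SE 0.09), with -0.11 in temporal and -0.09 in dorsal. Over all genes, 6.31% had every KO array below every WT array and 5.16% had every KO array above, and among the 21 these were Bmpr1a below and Tgfbi above, which for Tgfbi ranks levels that were mostly not detected. The fitted difference of Bmpr1a was -0.71 (SE 0.43, adjusted p = 0.819, limma) and -0.10 without either nasal array. The other Bmpr1a probe gave -0.55 in nasal, 0.08 in temporal and 0.44 in dorsal, so only the nasal direction was shared by both probes. In the nasal epithelium 9 of 13 mesenchyme markers were also lower on the KO array, while 5377 of all 11147 genes were higher there. The widest were Col1a2 (4.80 on KO, against 7.20 on WT) and Col3a1 (5.37 on KO, against 7.59 on WT). Tfap2b, Twist2 and Dcn were nearly equal. Foxc2 (8.13 on KO, against 7.59 on WT), Pdgfra, Twist1 and Prrx1 were higher on KO. The sum of the mesenchyme markers without Tfap2b was 840 on KO nasal and 1207 on WT nasal. Their part in the nasal values of Bmpr1a and Fst was not tested.

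Acvr1, another type I receptor, had levels of 6.10, 6.07 and 4.80 on the KO arrays, against 6.24, 6.01 and 5.83 on the WT arrays. The KO dorsal array was the low one, 2.03-fold below WT (-1.02, bead SE 0.14), and the fitted difference was -0.37. Bmpr2, the type II receptor for BMPs, was at 8.53, 9.18 and 8.21 on the KO arrays, against 8.59, 8.77 and 8.57 on the WT arrays, with a fitted difference of -0.00. Its probes did not give a single answer in the temporal epithelium: the brightest gave 0.41 and the other 3 gave -0.60, -1.06 and -1.28. Bmpr1b, a type I receptor, was detected only on WT nasal by one probe and on WT temporal by another.

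The secreted antagonist Fst, follistatin, which binds activins and some BMPs, was lower on the KO array in each region. It stood at 4.72, 5.36 and 4.62 on the KO arrays, against 6.33, 5.89 and 4.81 on the WT arrays. WT nasal and temporal were the high arrays, and WT dorsal lay below KO temporal, so the genotypes overlapped. In the nasal epithelium Fst was 3.05-fold lower on the KO array (-1.61, bead SE 0.17), with -0.54 in temporal and -0.19 in dorsal. The fitted difference was -0.78 (SE 0.35, adjusted p = 0.814, limma), and -0.36 without either nasal array.

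Grem1, gremlin, a BMP antagonist, was dim, at 4.67, 4.71 and 4.54 on the KO arrays, against 4.66, 4.36 and 4.43 on the WT arrays, with WT temporal and dorsal not detected. Smad7, which blocks receptor signalling inside the cell, was at 6.14, 5.95 and 4.95 on the KO arrays, against 6.09, 5.35 and 5.12 on the WT arrays, with a fitted difference of 0.16. Both overlapped between genotypes. Nog (noggin), Bmper and Smad6, other inhibitors or modulators of BMP signalling, were not detected on any array, and Bambi, a pseudoreceptor, was detected only on WT nasal.

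The Id genes encode helix-loop-helix proteins without a DNA-binding region and are widely used as readouts of BMP signalling. They did not move as a group, with 1 of the 4 tested above 0 and 3 below, and a median fitted difference of -0.10. Id1 was at 7.23, 7.77 and 7.28 on the KO arrays, against 7.43, 6.74 and 7.33 on the WT arrays. In the temporal epithelium, where Bmp4 differed most, Id1 was 2.05-fold higher on the KO array (1.03, bead SE 0.09), with -0.20 in nasal and -0.04 in dorsal.

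Id2 was lower on the KO array in the temporal epithelium by each of its 3 probes. It stood at 8.12, 7.47 and 7.41 on the KO arrays, against 7.54, 8.80 and 7.69 on the WT arrays, with WT temporal the highest of the 6. The temporal difference was -1.33 (bead SE 0.09, 2.51-fold lower on the KO array), and its other probes gave -2.06 and -1.08 there. In nasal the brightest probe gave 0.58 and the others -1.90 and -0.69, so the direction there depends on the probe.

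Id4 was at 5.00, 4.25 and 5.66 on the KO arrays, against 4.99, 5.48 and 4.72 on the WT arrays. It was not detected on KO temporal, where it was at least 1.94-fold lower than on WT temporal, and its second probe differed by 0.08 there. Id3 was at 5.74, 5.51 and 5.41 on the KO arrays, against 5.98, 5.51 and 5.48 on the WT arrays, and Atoh8, another helix-loop-helix gene, was not detected. The fitted differences of Id1, Id2 and Id4 changed sign when either temporal array was left out. Markers of nerve glia, 5 of 6 detected on at least 2 arrays and S100b on none, summed to 81.4 on KO temporal and 766 on WT temporal. The sums were 347 and 178 on the nasal and 130 and 132 on the dorsal KO and WT arrays. Without Erbb3, the brightest, they were 57.3 and 564 in temporal, 36.9 and 124 in nasal and 56.0 and 51.6 in dorsal. So the nasal direction depends on Erbb3. In temporal 4 of the 5 markers were lower on the KO array. Their part in the temporal differences was not tested.

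Of the homeobox genes that respond to BMP in other tissues, Dlx3 alone was detected on all 6 arrays. This gene of surface ectoderm and its appendages stood at 7.90, 7.06 and 7.73 on the KO arrays, against 6.81, 6.28 and 7.33 on the WT arrays. KO lay above WT in each region, with WT dorsal above KO temporal. Differences were 1.08 in nasal (2.11-fold, bead SE 0.10), 0.77 in temporal and 0.40 in dorsal, and the fitted difference was 0.75 (SE 0.26, adjusted p = 0.814, limma). Dlx5 was detected on WT nasal and WT temporal and on no KO array, at levels of 4.30 to 4.69 over the 6 arrays, and Msx1, Msx2, Dlx1 and Dlx2 were not detected.

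The TGF-beta ligand Tgfb2 differed far more between regions than between genotypes. Its level was 8.44, 4.77 and 7.05 on the nasal, temporal and dorsal KO arrays, against 8.86, 6.03 and 6.95 on the WT arrays. In temporal it was 2.39-fold lower on the KO array (-1.26, bead SE 0.13), with -0.42 in nasal and 0.10 in dorsal, and the fitted difference was -0.53 (SE 0.33, adjusted p = 0.824, limma) or -0.16 without either temporal array. Tgfb1 and Tgfb3, the other TGF-beta ligands, were not detected.

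Ltbp1, which holds latent TGF-beta in the matrix, was at 7.67, 5.60 and 5.51 on the KO arrays, against 6.72, 6.63 and 6.02 on the WT arrays. KO nasal was the highest, and the differences were 0.95 in nasal, -1.03 in temporal (2.05-fold, bead SE 0.12) and -0.51 in dorsal. Of its 6 probes detected on at least 2 arrays, 6 were lower on the KO array in temporal, 5 in dorsal and 4 in nasal.

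The TGF-beta receptors gave mixed values. Tgfbr1, the type I receptor, was at 8.71, 8.46 and 7.78 on the KO arrays, against 8.05, 8.40 and 8.04 on the WT arrays, and its 4 probes differed in sign in all 3 regions. Tgfbr2, the type II receptor, was at 5.18, 4.37 and 4.80 on the KO arrays, against 4.31, 4.80 and 5.81 on the WT arrays, and was not detected on KO temporal or WT nasal. In nasal it was at least 1.62-fold higher on the KO array, while its other detected probes gave 0.38 and -0.32. In dorsal it was 2.02-fold lower on the KO array (-1.01, bead SE 0.17), while its other 2 detected probes gave -0.07 and 0.10.

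Tgfbr3, betaglycan, a co-receptor that presents TGF-beta2 to its receptors, had the most uneven pattern. It stood at 7.62, 4.26 and 6.73 on the nasal, temporal and dorsal KO arrays, against 5.96, 6.47 and 5.84 on the WT arrays. KO nasal and dorsal were the 2 highest arrays and KO temporal, where the probe was not detected, the lowest. Tgfbr3 was 3.16-fold higher on the KO array in nasal (1.66, bead SE 0.15) and at least 3.84-fold lower in temporal, with 0.89 in dorsal. The genotype difference in temporal minus the mean of the other regions was -3.49 (SE 0.62, adjusted p = 0.844, limma), and the second probe gave 0.07, -0.36 and -0.06.

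**Figure D2:**
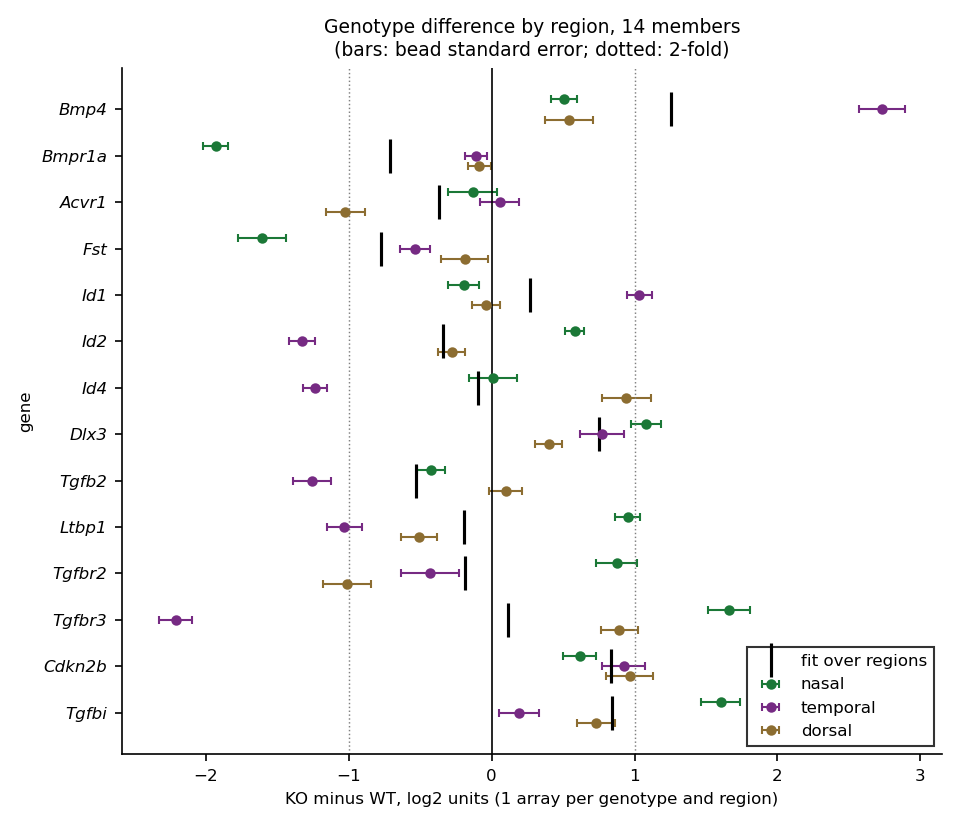
KO minus WT in log2 units (x axis) for 14 genes (y axis), by region, with bars for the bead standard error, which covers measurement on the array only, and black strokes for the difference fitted over the regions. Bmp4 at 2.73 in temporal and Bmpr1a at -1.93 in nasal lie far from 0. The temporal points of Tgfbr3 and Id4 rest on a KO array without detection. Bmp4, Dlx3 and Cdkn2b have all regions above 0. So does Tgfbi, which in temporal was detected on neither array.

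Of the TGF-beta response genes, Cdkn2b was higher on the KO array in each region and Tgfbi was detected on KO arrays alone. Cdkn2b, which encodes the cell cycle inhibitor p15 and is induced by TGF-beta in epithelial cells, was at 7.67, 5.46 and 6.15 on the KO arrays, against 7.05, 4.53 and 5.18 on the WT arrays. The differences were close to each other, 0.62 in nasal, 0.92 in temporal and 0.97 in dorsal, with bead SEs of 0.12 to 0.16. The fitted difference was 0.84 (SE 0.24, adjusted p = 0.814, limma), although the levels of the genotypes overlapped because the regions differed more.

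Tgfbi, which encodes a secreted matrix protein of the cornea induced by TGF-beta, was not detected on any WT array. Its level was 6.02, 4.44 and 4.98 on the nasal, temporal and dorsal KO arrays, of which temporal was not detected, against 4.41, 4.25 and 4.25 on the WT arrays. KO nasal and KO dorsal were thus the only arrays with a signal by this probe. The second Tgfbi probe was not detected on any array, and its level was 4.30 on KO nasal. Tgfbi was at least 2.89-fold higher on the KO array in nasal and at least 1.45-fold higher in dorsal. The fitted difference of 0.84 (SE 0.34, adjusted p = 0.814, limma) was 0.46 without either nasal array.

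Markers of macrophages, cells that also make Tgfbi, were 8 of 8 higher on the KO arrays by fitted difference, with Ptprc, Fcgr1, C1qb and C1qc not detected on any array. They summed to 276, 124 and 248 on the nasal, temporal and dorsal KO arrays, against 130, 41.3 and 62.6 on the WT arrays. Without Laptm5, the brightest of them, the sums were 272, 73.2 and 68.0 on the KO arrays and 71.1, 33.4 and 47.5 on the WT arrays. Within regions 2, 2 and 3 of the 8 were lower on the KO array, in the same order. The part of these markers in the Tgfbi values was not tested.

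Within single regions, 5 of 21 genes differed at least 2-fold in nasal, against 21% of the genes tested there: Dlx3, Tgfbi and Tgfbr3 higher, Bmpr1a and Fst lower. In temporal it was 7 of 20, against 16.9%, with Bmp4 and Id1 higher (8.58% of genes were) and Id2, Id4, Ltbp1, Tgfb2 and Tgfbr3 lower (8.31% were). Id4 counts here by its undetected level, and its bound of 1.94-fold falls short of 2-fold. In dorsal it was 2 of 20, against 6.49%: none higher, against 3.15%, and Acvr1 and Tgfbr2 lower, against 3.35%. In nasal and dorsal the members' share stood close to that of all genes. With 1 array per genotype in a region these are values without a test. No gene was called for a genotype difference that departed from the other regions, in nasal, temporal or dorsal (0% each, limma), while an unadjusted p under 0.05 was reached by 9.63%, 5.64% and 2.08% of genes and by 3, 2 and 0 of the 21.

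With a fitted difference of at least 0.5, the KO array was higher in all 3 regions for 4 of the 21 genes. These were Bmp4, Dlx3, Cdkn2b and Tgfbi, against 5.89% of all genes. Tgfbi was detected on neither array in temporal. It passed the detection filter through KO arrays alone, so its direction carries no weight. The KO array was lower in the same way for 2, Bmpr1a and Fst, against 6.58%.

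**Figure D3:**
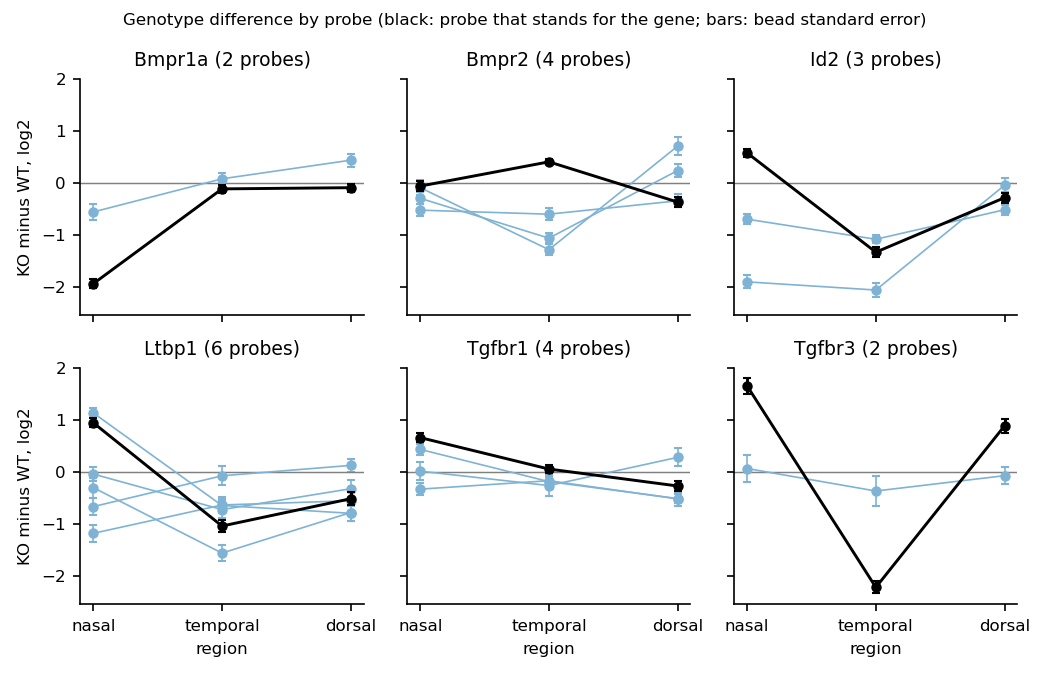
KO minus WT in log2 units (y axis) by region (x axis) for each probe, detected on at least 2 arrays, of 6 genes, with the brightest probe, which stands for the gene, in black, the others in blue and bars for the bead standard error. The Id2 and Ltbp1 probes share their sign in temporal, while those of Bmpr2 and Tgfbr3 spread widely there.

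Of 9 tested genes with more than 1 detected probe, 8 had probes that differed in sign in at least 1 region, Bmp7 being the exception. These 8 were Bmpr1a, Bmpr2, Id2, Id4, Ltbp1, Tgfbr1, Tgfbr2 and Tgfbr3, and their values depend on which probe is read. Bmp4, Fst, Dlx3, Tgfb2, Cdkn2b and Tgfbi each rest on 1 detected probe.

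The comparison of nasal with temporal epithelium sets the sites of 2 different glands against each other. Tgfb2 and Cdkn2b were both far higher in nasal, in both genotypes. Tgfb2 was 12.7-fold higher in nasal on the KO arrays (3.67 log2 units, bead SE 0.12) and 7.13-fold on the WT arrays (2.83, bead SE 0.11). Cdkn2b was 4.63-fold higher on the KO arrays (2.21, bead SE 0.12) and 5.73-fold on the WT arrays (2.52, bead SE 0.15). For both genes the nasal array stood highest in each genotype, the dorsal array in between and the temporal array lowest.

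The fitted nasal minus temporal difference was 3.25 for Tgfb2 (SE 0.41) and 2.37 for Cdkn2b (SE 0.30), each with an adjusted p of 0.690 by limma, so neither was called. No gene of the 11147 was (0%), and 7.08% reached an unadjusted p under 0.05, with Tgfb2 and Cdkn2b among them. A nasal level at least 2-fold above temporal in both genotypes was found for 0.942% of genes and for these 2 of the 21, and the reverse for 0.933% and none of the 21. At 4-fold it was 6 genes in all (0.0538%): Tgfb2, Cdkn2b, Dcn, Fzd10, Ntn3 and Sepsecs. Dcn, decorin, is a marker of mesenchyme, and 5 of 13 mesenchyme markers were higher in nasal than in temporal on the KO arrays and 8 of 13 on the WT arrays. They summed to 1849 in nasal and 2678 in temporal on the KO arrays and to 2218 and 2478 on the WT arrays. Without Tfap2b the sums were 840 and 1030 on the KO arrays and 1207 and 730 on the WT arrays. The part of mesenchyme in these values was not tested.

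**Figure D4:**
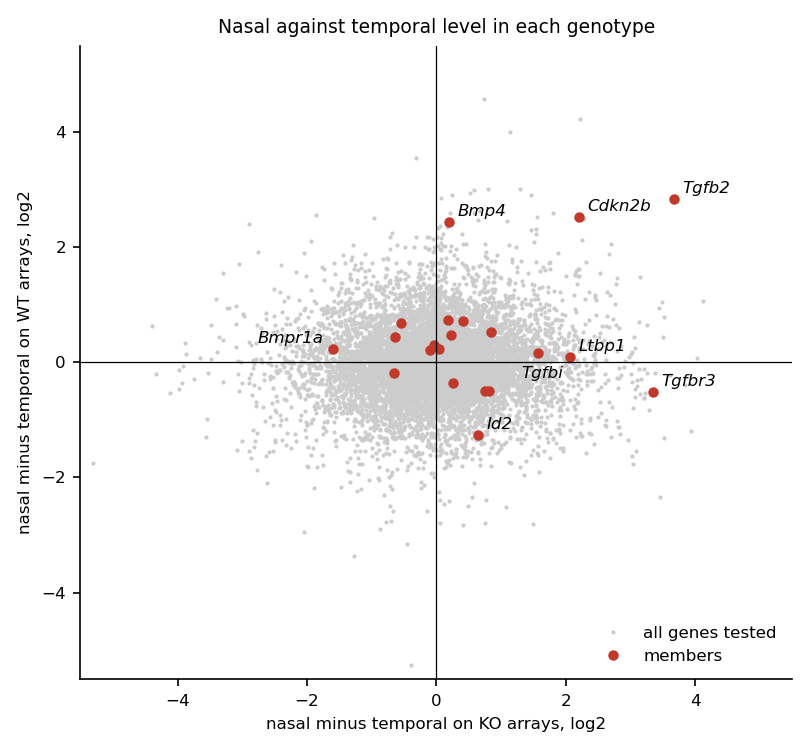
Nasal minus temporal level in log2 units on the KO arrays (x axis) and on the WT arrays (y axis) for all 11147 genes tested (grey) and the 21 members (red), with 8 members named. Each gene is placed by its brightest probe. Tgfb2 and Cdkn2b lie apart at the upper right, high in nasal in both genotypes. Bmp4 is high in nasal on the WT arrays alone, and Tgfbr3 and Ltbp1 on the KO arrays.

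By the brightest probe, other members gave unlike values in the 2 genotypes. Bmp4 was 5.39-fold higher in nasal on the WT arrays (2.43) and 1.15-fold on the KO arrays (0.20). On the KO arrays Ltbp1 was 4.21-fold higher in nasal (2.07), with 0.09 on the WT arrays, and Tgfbi was at least 2.81-fold higher, while it was detected on neither of those WT arrays. Tgfbr3 was at least 8.50-fold higher in nasal on the KO arrays and differed by -0.51 on the WT arrays, and Id2 by 0.65 and -1.26. Whether the genotypes differ in this contrast was not tested.

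Nasal lay above temporal in both genotypes, by the brightest probe, for 10 of the 21 genes, against 24.5% of all genes. It lay below in both for 1, Bmpr2, against 26.9%. The 10 were Bmp4, Bmp7, Acvr1, Smad7, Id3, Dlx3, Tgfb2, Ltbp1, Cdkn2b and Tgfbi, with Acvr1 the only receptor. Acvr1 on the KO arrays (0.04, bead SE 0.14) and Ltbp1 on the WT arrays (0.09, bead SE 0.10) lay within the bead error of 0. The second Bmp7 probe, not detected on KO nasal, gave -0.67 on the KO arrays. On the WT arrays the detected Ltbp1 probes ranged from -0.57 to 0.74. Other detected Bmpr2 probes gave 1.14, 1.30 and -0.04 on the KO arrays and 0.37, 0.11 and -0.12 on the WT arrays. A dimmer Tgfbr1 probe lay above in both, by 0.60 on the KO arrays and 0.32 on the WT arrays. So these counts depend on the probe. Tgfbi counts here by undetected levels on the WT arrays.

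Promoter sequence is shown for the 2 genes that shared the nasal pattern, Tgfb2 and Cdkn2b, for Bmp4, with the widest genotype difference, and for Tgfbi, detected on KO arrays alone. Each is the RefSeq window from 250 bases before to 50 after the start, in build GRCm38.p6, 5′ to 3′ on the gene's strand. Capitals mark the Smad box CAGAC, read as GTCTG on the other strand, and the GC-rich Smad motif GGCGCC, which reads the same on both strands. Tgfb2 lies at chr1:186705940-186706239, Cdkn2b at chr4:89310983-89311282 and Bmp4 at chr14:46390620-46390919, all on the minus strand, and Tgfbi at chr13:56609336-56609635 on the plus strand.
Tgfb2: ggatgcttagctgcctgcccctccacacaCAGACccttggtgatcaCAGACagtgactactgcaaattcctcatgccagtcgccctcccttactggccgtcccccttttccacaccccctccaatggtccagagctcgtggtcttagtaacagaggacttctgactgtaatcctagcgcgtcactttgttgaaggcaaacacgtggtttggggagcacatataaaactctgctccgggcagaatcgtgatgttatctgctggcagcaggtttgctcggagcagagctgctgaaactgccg
Cdkn2b: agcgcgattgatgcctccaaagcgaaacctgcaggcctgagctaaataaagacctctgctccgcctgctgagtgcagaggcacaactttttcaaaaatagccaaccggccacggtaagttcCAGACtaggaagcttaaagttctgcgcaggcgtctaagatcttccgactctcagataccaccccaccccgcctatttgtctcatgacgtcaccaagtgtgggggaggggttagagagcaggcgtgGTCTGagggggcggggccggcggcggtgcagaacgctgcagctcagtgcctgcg
Bmp4: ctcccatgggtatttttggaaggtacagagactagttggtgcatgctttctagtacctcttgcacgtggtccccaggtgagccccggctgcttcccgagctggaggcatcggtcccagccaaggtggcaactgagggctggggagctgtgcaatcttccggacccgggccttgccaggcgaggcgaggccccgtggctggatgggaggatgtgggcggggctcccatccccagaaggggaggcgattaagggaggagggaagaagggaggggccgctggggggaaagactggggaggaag
Tgfbi: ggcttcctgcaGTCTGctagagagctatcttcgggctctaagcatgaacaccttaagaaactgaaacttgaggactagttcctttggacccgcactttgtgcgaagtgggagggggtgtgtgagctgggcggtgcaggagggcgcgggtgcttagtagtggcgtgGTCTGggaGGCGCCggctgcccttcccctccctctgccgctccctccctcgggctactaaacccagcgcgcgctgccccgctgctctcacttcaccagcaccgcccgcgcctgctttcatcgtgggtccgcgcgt

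The Tgfb2 window holds the Smad box at -221 and -204 from the start and the Cdkn2b window at -129 and -4. The Tgfbi window holds it at -239 and -85, with GGCGCC at -77, and the Bmp4 window holds neither motif. None of the 4 windows holds ACAATG, a core sequence of Sox factors, searched with its reverse CATTGT. The Smad box is common, present in 49.5% of 32544 promoter windows of the same length, against 11.9% for GGCGCC and 12.4% for ACAATG. Of 27 windows of the 23 members with an entry, 12, 8 and 2 held these motifs in the same order. The matches describe the sequence alone.

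**Figure D5:**
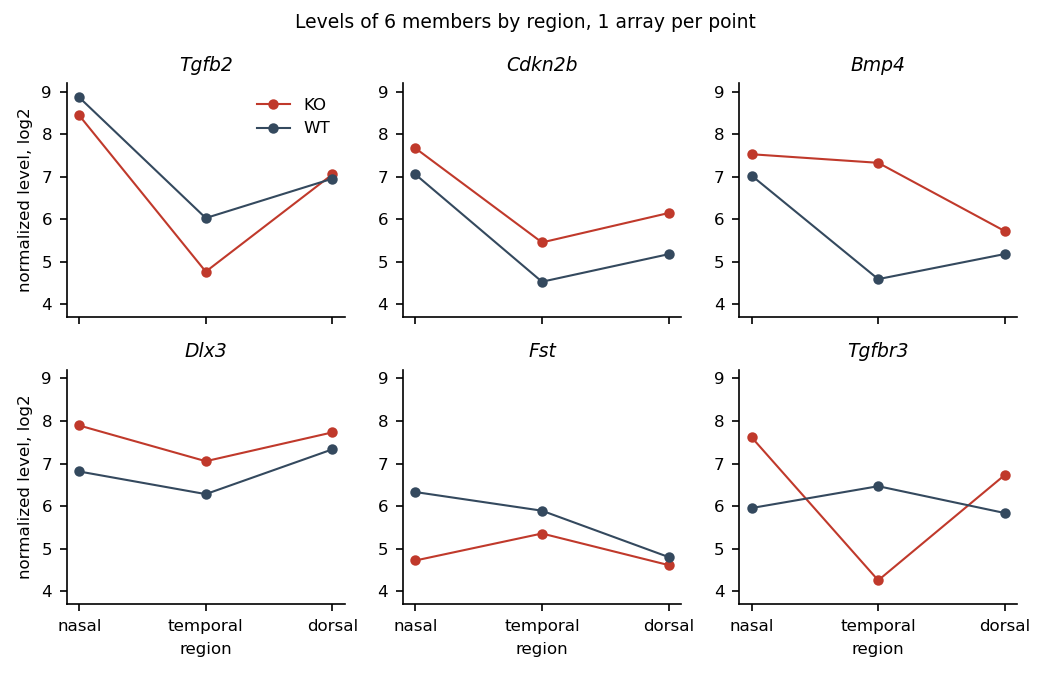
Normalized log2 level (y axis) of 6 genes in nasal, temporal and dorsal epithelium (x axis), KO in red and WT in dark blue, 1 array per point. The Tgfb2 and Cdkn2b lines fall to temporal in both genotypes, the KO line of Dlx3 runs above and that of Fst below the WT line in every region, and the lines of Tgfbr3 cross.

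The comparison of nasal and temporal with dorsal epithelium sets the regions that form glands against the one that does not. No gene was called (0%, smallest adjusted p of the 21 0.999, limma), and 3.83% of genes and Smad7 among the 21 reached an unadjusted p under 0.05. Smad7 was higher in the gland regions by 1.09 on the KO arrays and by 0.59 on the WT arrays, fitted at 0.84 (SE 0.29). Bmp4 was higher there by 1.70 on the KO arrays and by 0.63 on the WT arrays, fitted at 1.16 (SE 0.53), or 0.61 without KO temporal and 0.63 without KO dorsal. Fst was higher by 0.42 on the KO arrays and by 1.31 on the WT arrays, and Acvr1 by 1.28 and 0.30.

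The gland regions lay above dorsal in both genotypes for 13 of the 21, against 26% of all genes, and below for 3, Bmp7, Dlx3 and Tgfbr2, against 24.7%. The 13 include Grem1, Dlx5 and Tgfbi, whose levels were in part not detected. For Bmpr2, Id2, Ltbp1 and Tgfbr1, another detected probe did not lie above dorsal in both genotypes, so the count depends on the probe. At 2-fold in both genotypes, 0.215% of genes lay above dorsal and 0.377% below, and none of the 21 did either.

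Of 104 further genes of these pathways, 91 were on the array and 55 were tested. None was called between genotypes, 26 had a fitted difference above 0 and 29 below, and the median was -0.01, as over all genes. The KO array was higher in all 3 regions for 3 of the 55, against 13% of all genes: Tfap2a, a surface ectoderm transcription factor (0.95, SE 0.30), Ski, a repressor of Smad activity (0.53, SE 0.27), and Inhba, a subunit of activin (0.42, SE 0.29), which was detected in nasal alone. In all 3 regions the KO array was lower for 10 of the 55, against 14.4%. The widest of these was Ccn2, connective tissue growth factor, a TGF-beta response gene, at -1.09 (SE 0.30). It was not detected on KO nasal, where it was at least 2.68-fold lower.

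Then came Neo1, a receptor that binds repulsive guidance molecules and BMPs, at -0.80 (SE 0.25), and the extracellular proteins Fstl1 at -0.67 (SE 0.33) and Twsg1 at -0.66 (SE 0.25), which bind BMPs. The activin type II receptor Acvr2a was at -0.58 (SE 0.25) and the latency protein Ltbp3 at -0.51 (SE 0.25). Each of these 9 genes had an adjusted p of 0.814 by limma except Inhba, at 0.845. Ccn2, at 4.66 ± 0.32 on the KO arrays against 5.75 ± 0.23 on the WT arrays (SD over the 3 regions, n = 3 each), differed in the opposite direction to Cdkn2b and Tgfbi, which also respond to TGF-beta.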

How the data were processed

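Expression was measured on 6 Illumina bead arrays, 1 for each genotype and region. Total RNA from laser-microdissected epithelium was amplified to cDNA and labelled with biotin, per the labels' protocols, and GenomeStudio is the only tool named in the submitters' processing notes. One deposited table contained, per the file headers, each probe's average signal (an intensity), its standard error over beads, the count of beads and a detection p-value. These deposited signals were neither background-subtracted nor normalized between arrays, as their medians show. A second deposited table held the authors' processed intensity values, whose normalization and centring are not given in the sources used here. It was used only as an alternative.

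Signals were corrected with limma 3.58.1 (R 4.3.3) by normexp (offset 16, negative-control parameters taken from the detection p-values), quantile-normalized and taken to log2. The offset makes folds of dim genes too small. Probes with a detection p under 0.05 on at least 2 of 6 arrays were kept, and the brightest of them represents the gene. Member probes were read from at least 17 beads, with a median of 40. Symbols came from the platform annotation, in which 34885 probes had 1 symbol, 18 several and 10378 none. The table also held 1315 entries without an identifier, not used here.

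All 6 arrays were fitted with region and genotype as terms (lmFit, eBayes, 2 residual degrees of freedom), with Benjamini-Hochberg adjustment over 11147 genes at 0.05. Contrasts of this fit were KO minus WT, the gland regions (nasal and temporal, averaged) minus dorsal, and nasal minus temporal. The genotype difference of a region minus the mean of the others came from a separate fit for each region. Each such fit had an added term for that difference, which left fewer residual degrees of freedom. Its p-values were adjusted in the same way. P-values measure only the spread between these arrays. Differences within a region have no test, and their bead standard errors cover measurement on the array only. Where a side was not detected, the fold is a bound, taken against the lowest detected value on that array or the probe's own value, whichever is higher. Marker sums are normalized intensities less the offset. The number of arrays limits the precision.

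Values on every array are given for genes that differed at least 2-fold between genotypes in a region, or by at least 0.5 log2 units with the same sign in all regions, or by at least 1 log2 unit between regions with the same sign in both genotypes, and for others named for their role. Of further pathway genes, up to 6 per direction with the same sign in all regions are named. The members, the lists and the motifs were chosen with earlier results of these data known. The 6 genes with a 4-fold nasal excess, the mesenchyme markers named singly and the printed promoters were picked after values were seen. Promoters came from RefSeq windows of 300 bases, with an entry for 23 of the 34 genes. Alternatives changed the background correction, its offset, the normalization, the detection filter, the probe rule, the model terms and the arrays used.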

Additional observations from a re-analysis of the deposited data

Results flagged for a closer look

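Tgfbr3 was the only tested member with a difference of at least 2-fold between genotypes in opposite directions in different regions. The KO array was higher in nasal (1.66 log2 units) and lower in temporal (-2.21, with the probe not detected on KO temporal), and the genotype difference in temporal minus the mean of nasal and dorsal was -3.487 log2 units. That departure was not called (adjusted p = 0.844, limma).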

How the results depend on the processing

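No gene was called in any of the 6 fitted comparisons under any alternative run, and the fitted genotype differences of Bmp4, Bmpr1a, Fst, Dlx3, Tgfb2, Cdkn2b and Tgfbi kept their sign. With 1 array per group, leaving out an array drops its whole region from the genotype comparison. Over all alternatives the fitted KO minus WT difference ranged from 0.52 to 1.64 for Bmp4, -1.02 to -0.10 for Bmpr1a, -1.07 to -0.33 for Fst, 0.52 to 1.04 for Dlx3, -0.84 to -0.16 for Tgfb2, 0.40 to 1.03 for Cdkn2b and 0.33 to 1.17 for Tgfbi. Nasal minus temporal ranged from 2.14 to 3.80 for Tgfb2 (adjusted p 0.147 to 0.999) and from 1.27 to 2.53 for Cdkn2b (0.154 to 0.999). Within regions, the difference ranged from 1.38 to 2.88 for Bmp4 in temporal, -1.93 to -1.24 for Bmpr1a, -1.61 to -0.70 for Fst and 0.63 to 1.68 for Tgfbi in nasal, and -2.41 to -0.95 for Tgfbr3 in temporal. Bmp4 in the gland regions minus dorsal ranged from 0.61 to 1.72. Median scaling moved the median of all genes to 0.14 and the share above 0 to 65.4%, against 49.2%, and turned Bmpr2, Id3 and Ltbp1 above 0. Averaging probes turned the sign of Id4, Tgfbr1 and Tgfbr3. So did leaving out an array for Smad7, Id1, Id2, Id4 and Ltbp1 (temporal), Bmpr2, Tgfbr1 and Tgfbr3 (nasal), and Bmpr2, Tgfbr2 and Tgfbr3 (dorsal).

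Counts of genes at least 2-fold apart depended most on the background step, which compresses dim probes when left out or given a larger offset. In nasal there were 2169 genes, against 539 with no background correction, 884 with an offset of 50 and 1391 among genes detected on all 6 arrays. In temporal there were 1766, against 389, 643 and 1148 under the same settings. In dorsal there were 685, against 58, 134 and 415, and 446 with probes averaged. The members' 5 in nasal became 2, 2 and 3, and the 7 in temporal became 2 and 3 with no background correction and an offset of 50. The 2 in dorsal became 0 and 0 under those, and 1 each with the authors' values, with detection on all 6 arrays and with probes averaged. Signal over background limits Tgfbi, Id4, Tgfbr2, Tgfbr3, Grem1 and Dlx5, which were not detected on every array.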
